A study of Mus musculus with 6 samples.

Results

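The ErbB receptors and their EGF-family ligands were followed as 10 genes, 4 receptors (Egfr, Erbb2, Erbb3 and Erbb4) and 6 ligands (Nrg1, Nrg3, Hbegf, Tgfa, Areg and Btc), taken by gene name from a table of 58116 rows. Each name had 1 row, and all 10 passed the low-count filter that left 17006 genes for testing. RNA came from wild type mouse salivary gland primordia at embryonic day 13.5 (E13.5), the stage at which a small epithelium branches into the surrounding mesenchyme. One group of primordia had been given BMP-2, a bone morphogenetic protein, at 300 ng/ml, and the controls 0 ng/ml, with 3 libraries in each group. The study asked what BMP-2 does during formation of the gland. The sources used here do not state the length of treatment, the number of glands per library or whether libraries came from separate litters. The p-values therefore reflect library-to-library spread that could be technical.

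ErbB receptors are transmembrane tyrosine kinases that pair with each other when a ligand binds. Egfr binds Areg, Tgfa, Hbegf and Btc, among others, while Erbb3 and Erbb4 bind neuregulins, and Erbb4 also binds Hbegf and Btc. Erbb2 has no known ligand of its own and acts as a partner, and Erbb3 has a weak kinase and depends on one. The ligands are made as membrane proteins and most are released by metalloproteases. In the embryonic salivary gland, EGF-family signalling through the ERK kinases is known to promote branching, and neuregulin is known from mouse glands as an epithelial growth signal.

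Library totals ran from 19724383 to 32473558 counts. Levels are given as CPM (counts scaled to a common library size), with TMM factors. The column of 1 BMP-2 library matched no sample description and was placed by the first letter of its name, so it is called the unnumbered BMP-2 library. Series of values run in the order replicate 1, replicate 2, unnumbered library for BMP-2, and replicate 1, replicate 2, replicate 3 for controls. Epithelial markers, 12 of 12 detected, summed to 4046 to 5942 CPM in BMP-2 libraries and 4790.4 to 5529 CPM in control libraries. Mesenchymal markers, 10 of 10 detected, summed to 6125 to 9569 CPM with BMP-2 and 7319 to 8632 CPM without, so both compartments of the labelled tissue were present. Skeletal muscle markers, 12 genes, all detected in each BMP-2 library, summed to 205 to 941 CPM in BMP-2 libraries and 6.46 to 107 CPM in control libraries. In bulk RNA, fewer cells of a type and less RNA per cell cannot be told apart.

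With BMP-2, 1 of the 10 genes was called: Erbb4 was higher, from a very low level, and the call ended when any 1 library was left out. The other 3 receptors, which make up almost all receptor transcripts here, had fitted changes near 0, and 0 of the 6 ligands was called in either direction. A call means a Benjamini-Hochberg adjusted p below 0.05 over all 17006 genes in edgeR's quasi-likelihood test, a rule that called 155 genes (0.911% of those tested), 138 higher (0.811%) and 17 lower (0.100%). With 10 members, 1 call is too few to read against that share. At an unadjusted p below 0.05, 2 of the 10 members passed, Erbb4 and Nrg3, against 10.1% of all tested genes. BMP-2 and control libraries did not overlap in the same 2 members, against 15.5% of all tested genes: Erbb4 was above all controls (8.76% of all tested genes were) and Nrg3 below them (6.73%). The median log2 change was 0.037 for the receptors and -0.43 for the ligands, against -0.0098 for all tested genes.

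**Figure D1:**
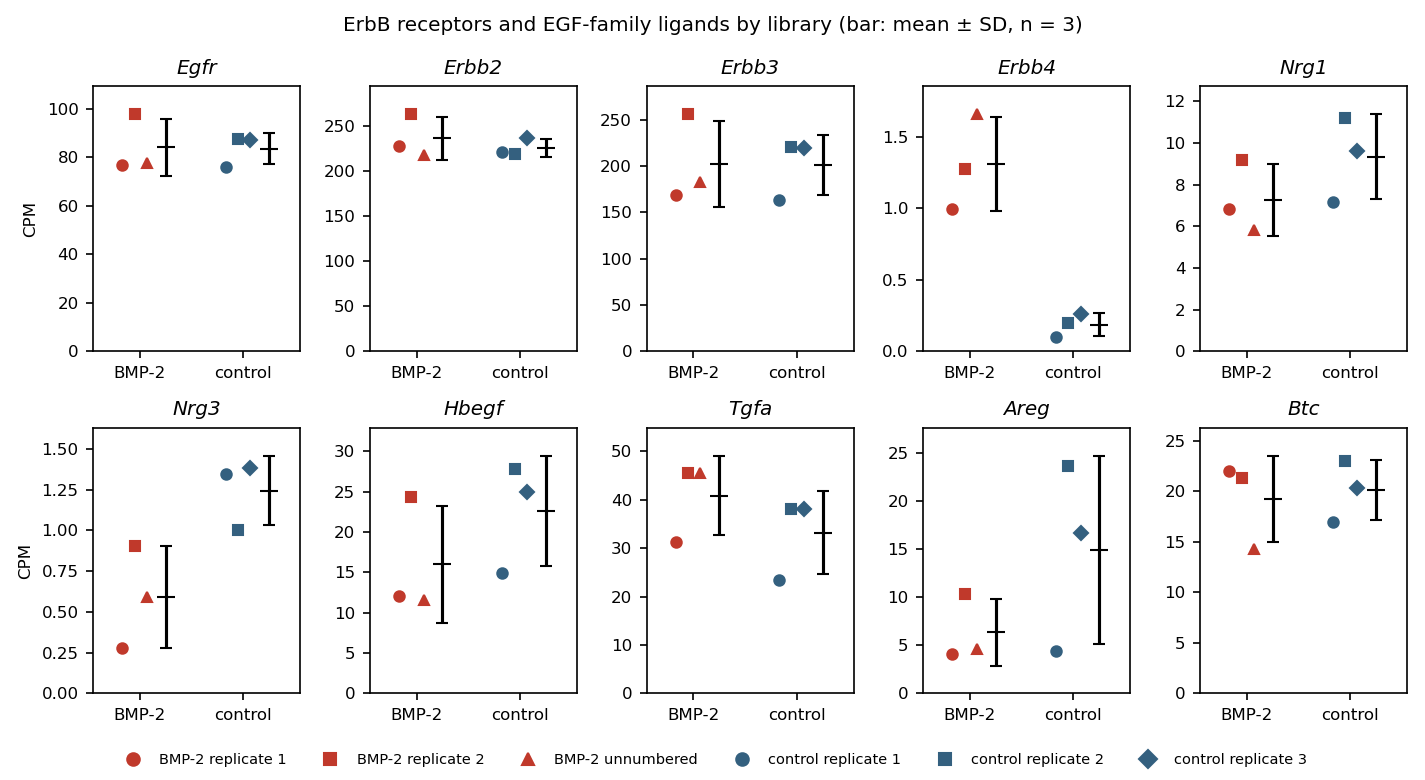
CPM of each of the 10 genes in every library, with BMP-2 libraries left and control libraries right, 1 symbol per library, and bars for the mean ± SD (n = 3). The BMP-2 libraries of Erbb4 (0.995 to 1.65 CPM) lie above all controls (0.0995 to 0.262 CPM) and those of Nrg3 lie below all controls, while the groups overlap for the other 8 genes.

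Erbb4 (ENSMUSG00000062209), the receptor for neuregulins and for Hbegf and Btc, lies on chromosome 1 from 68071345 to 69147218 on the minus strand (GRCm39, whole gene span). It had 32, 31 and 39 counts with BMP-2, and 2, 4 and 7 counts in control replicates 1, 2 and 3. As levels these were 0.995, 1.27 and 1.65 CPM with BMP-2, against 0.0995, 0.200 and 0.262 CPM in control replicates 1, 2 and 3. The groups were apart, with the lowest BMP-2 library above the highest control. Erbb4 averaged 1.31 ± 0.331 CPM in BMP-2 libraries and 0.187 ± 0.0819 CPM in control libraries (SD, n = 3 each). Its log2 change was 2.73 (SE 0.469, 95% interval 1.66 to 3.81, adjusted p = 0.0423 in edgeR). The fold change was 6.65 with a 95% interval from 3.16 to 14.0. By unadjusted p it ranked 133 among 17006 genes, near the end of the 155 called. Without any 1 of the 6 libraries the gene was no longer called: in edgeR the adjusted p lay between 0.0705 (without control replicate 3) and 0.167 (without control replicate 2), with log2 changes from 2.46 to 3.09. An exact permutation test of 3 against 3 libraries cannot give a two-sided p under 0.1. A further 8 gene models overlap the gene on the same strand, all with 0 counts in each library.

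The window of 250 bases before the RefSeq start of Erbb4 (chr1:69108060-69108309, minus strand, GRCm38.p6, another build than the counts) is shown because this gene is the one that was called. It was searched on both strands for GGCGCC, a GC-rich element bound by BMP-activated SMAD proteins, for GTCTAGAC, a pair of SMAD boxes, for the cAMP response element TGACGTCA, for the AP-1 element TGANTCA and for the TATA box TATAAA. None of these letters occurred in it, so no capitals stand in it. Of the 32851 windows of this length in the table, 9.59% held GGCGCC and 0.167% held GTCTAGAC.
Erbb4: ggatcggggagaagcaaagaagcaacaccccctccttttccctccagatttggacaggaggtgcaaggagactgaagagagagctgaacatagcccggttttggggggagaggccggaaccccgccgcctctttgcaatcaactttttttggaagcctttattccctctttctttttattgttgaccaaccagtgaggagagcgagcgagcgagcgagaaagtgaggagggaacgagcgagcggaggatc

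Transcripts of the BMP/SMAD response, of cartilage and bone, and of skeletal muscle also had higher scores with BMP-2, and their part in the Erbb4 result was not tested. Of these lists, 12 of 17 BMP/SMAD response genes, 5 of 9 tested cartilage and bone genes and 1 of 12 muscle genes were called higher, and 0 lower. Of all tested genes, 0.811% were called higher. The lists were chosen with earlier results of these data known, so these counts are a description. The score of a list is the mean log2 CPM of its genes relative to the control mean. The score of 17 BMP/SMAD response genes was 1.79, 2.58 and 2.54 with BMP-2, and 0.013, -0.16 and 0.15 in control replicates 1, 2 and 3. That of the cartilage and bone markers was 2.26, 3.23 and 3.28 with BMP-2, and -0.0032, 0.25 and -0.24 in control replicates 1, 2 and 3. In both lists, as in Erbb4, BMP-2 replicate 1 was the lowest of the treated libraries. Among the controls, Erbb4 was lowest in control replicate 1 and highest in control replicate 3. The BMP/SMAD score was lowest in control replicate 2 and highest in control replicate 3, and the cartilage and bone score was lowest in control replicate 3. The skeletal muscle score was 5.60, 3.67 and 5.66 with BMP-2, lowest in BMP-2 replicate 2, and -1.22, -1.24 and 2.46 in control replicates 1, 2 and 3. Control replicate 3 had the most muscle transcripts and the highest Erbb4 level of the controls. The most abundant muscle genes were Myh3 and Actc1, of embryonic myosin and cardiac actin. Myh3 had 219, 47.5 and 233 CPM with BMP-2, against 0.946, 0.701 and 24.0 CPM in the controls. Squamous epithelial markers had a score of 1.82, 1.27 and 1.04 with BMP-2, and 0.19, -1.29 and 1.10 in control replicates 1, 2 and 3. The groups overlapped in that score, and 0 of the 10 genes was called (4 at an unadjusted p below 0.05, edgeR), though 5 had each BMP-2 library above each control. Of the muscle genes, Actc1 was at 0 in control replicate 1, as were Pax7 and Myog, while Myf5 and Tnnc2 were at 0 in control replicates 1 and 2.

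**Figure D2:**
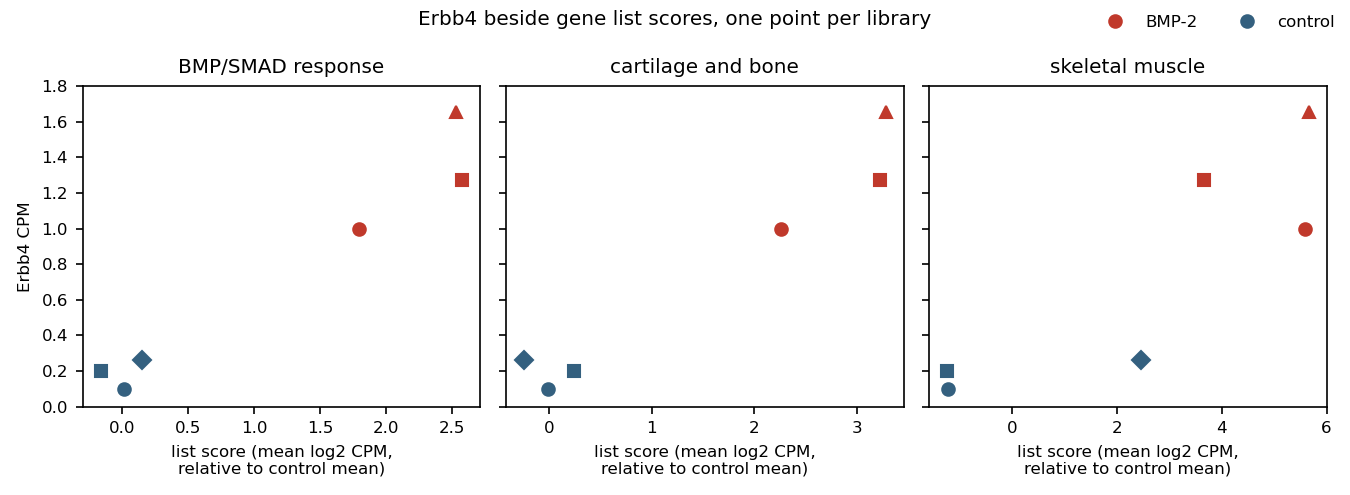
Erbb4 level (CPM, vertical) against the score of the BMP/SMAD response, cartilage and bone, and skeletal muscle lists (log2, horizontal), 1 point per library, with the symbols of the plot of all members. The 3 BMP-2 libraries are higher on both axes than the 3 controls in each panel, and among them Erbb4 is highest in the unnumbered library (1.65 CPM).

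The genes whose pattern over the 6 libraries was most like that of Erbb4, among 11967 genes of at least 5 CPM, were Ankrd44, Bmper and Dlx5, with Pearson r of 0.995, 0.994 and 0.993 on the log2 scale. Each was picked as the highest of 11967 values over 2 groups that differ, so r is a description. Bmper, which encodes a secreted BMP-binding regulator, had 12.9, 16.6 and 16.7 CPM with BMP-2, against 3.88, 5.16 and 5.27 CPM in control replicates 1, 2 and 3 (adjusted p = 0.0138, edgeR). Dlx5, a homeobox gene, had 6.90, 13.6 and 16.0 CPM with BMP-2, against 0.846, 1.35 and 1.57 CPM in the controls (adjusted p = 0.0138, edgeR). Ankrd44 was not called (adjusted p = 0.0594, edgeR). Bmper and Dlx5 were no longer called without the unnumbered BMP-2 library (adjusted p = 0.0700 and 0.0592), control replicate 1 (0.0585 and 0.0669) or control replicate 2 (0.0541 and 0.0676).

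The receptors Egfr, Erbb2 and Erbb3 were abundant, and their levels with and without BMP-2 differed by less than the spread between libraries. Egfr (ENSMUSG00000020122, chromosome 11, 16702203 to 16868158, plus strand), the receptor for EGF, Tgfa and Areg, had 77.0, 97.8 and 77.6 CPM with BMP-2, against 76.2, 87.5 and 87.1 CPM in control replicates 1, 2 and 3. The groups overlapped, although BMP-2 replicate 2 was above each control and control replicate 1 below each BMP-2 library, with the highest and lowest values 1.27-fold apart with BMP-2 and 1.15-fold apart in the controls. Its log2 change was 0.0094 (SE 0.123, 95% interval -0.27 to 0.29, adjusted p = 0.993, edgeR).

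Erbb2 (ENSMUSG00000062312, chromosome 11, 98303296 to 98328542, plus strand), the partner receptor without a ligand, had 228, 263 and 219 CPM with BMP-2, against 222, 219 and 237 CPM in the controls. Its log2 change was 0.064 with a 95% interval from -0.18 to 0.31 (adjusted p = 0.958, edgeR). Erbb3 (ENSMUSG00000018166, chromosome 10, 128403392 to 128425521, minus strand), the neuregulin receptor with a weak kinase, had 169, 256 and 182 CPM with BMP-2, against 163, 220.4 and 219 CPM in control replicates 1, 2 and 3. It varied more than Erbb2 within each group, and BMP-2 replicate 1 and control replicate 1 were the lowest of their groups. Its log2 change was 0.0085 with a 95% interval from -0.41 to 0.43 (adjusted p = 0.997, edgeR). For these 3 receptors the intervals end between 0.750-fold and 1.35-fold, so a doubling or halving lies outside them.

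Per kilobase of gene length, the order of the receptors was Erbb3, Erbb2, Egfr and Erbb4. Erbb3 was at 31.4 ± 7.26 CPM per kb in BMP-2 libraries and 31.2 ± 5.07 CPM per kb in control libraries, and Erbb2 at 28.9 ± 2.88 and 27.6 ± 1.196 CPM per kb with and without BMP-2 (SD, n = 3 each). These neighbours did not differ beyond their spread. Egfr was clearly lower, at 7.43 ± 1.04 CPM per kb with BMP-2 and 7.38 ± 0.565 CPM per kb without. Erbb4 was at 0.106 ± 0.0268 CPM per kb with BMP-2 and 0.0152 ± 0.00663 CPM per kb without. Of the receptor transcripts summed per length, Erbb4 therefore made up 0.159 ± 0.0495% with BMP-2 and 0.0224 ± 0.00823% without (SD, n = 3 each). Erbb2 and Erbb3 together held most of the receptor transcripts, with 42.9 ± 2.89% and 46.0 ± 3.13% in BMP-2 libraries and 41.9 ± 3.49% and 46.9 ± 3.61% in control libraries.

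**Figure D3:**
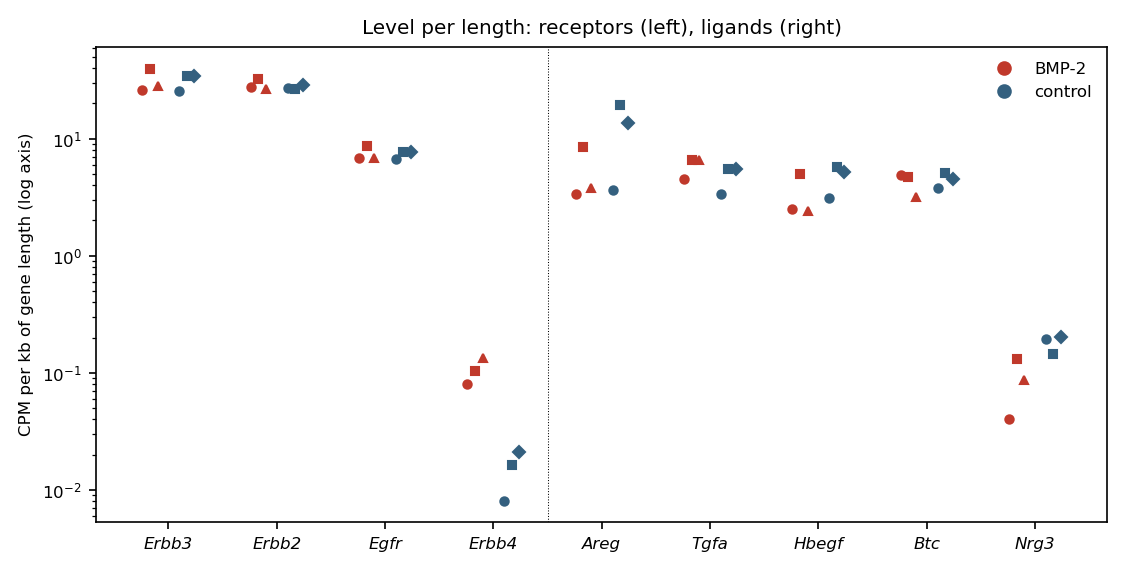
Level per kilobase of gene length (CPM per kb, log axis) for the 4 receptors and 5 ligands in each library, BMP-2 left and control right within each gene. Erbb3 and Erbb2 are highest and Erbb4 lowest of the receptors, and Nrg3 is far below the other ligands shown. Areg has the widest spread over the controls. Nrg1 is left out because its row's length is uncertain.

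Erbb3 has been used as a marker of Schwann cell precursors as well as of epithelium, so other markers of both are set beside it. Glial markers, 9 of 9 detected, summed to 68.1 to 102 CPM with BMP-2 and 60.8 to 118 CPM without. Of the 8 tested, 6 had negative and 2 positive changes, 0 was called, 6 had an unadjusted p below 0.05 in edgeR, and 5 had each BMP-2 library below each control. The glial score was -0.64, -0.54 and -0.57 with BMP-2, and 0.16, -0.36 and 0.20 in control replicates 1, 2 and 3, with no overlap. The most abundant glial markers were Mal and Sox2, both also known from epithelia. The epithelial score was -0.034, 0.15 and -0.35 with BMP-2, and 0.052, -0.12 and 0.068 in control replicates 1, 2 and 3. Erbb3 and Egfr were also highest with BMP-2 in BMP-2 replicate 2, but among the controls the lowest Erbb3 level was in control replicate 1, where the epithelial score was not lowest. The part of these cells in the Erbb3 values was not tested.

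Genes most like Egfr over the 6 libraries were Il4ra, Gjb2 and Serinc5 (Pearson r of 0.995, 0.995 and 0.987). Those most like Erbb2 were BC005537, Iqsec2 and Tgfbi (0.994, 0.992 and 0.988), and those most like Erbb3 were Tnfrsf12a, Sbno2 and Trim12c (0.994, 0.989 and 0.988). Gjb2, a gap junction gene of epithelia, had 51.3, 114 and 48.5 CPM with BMP-2, against 49.3, 80.5 and 78.1 CPM in the controls. Like Egfr, Gjb2 was highest in BMP-2 replicate 2 and lowest of the controls in control replicate 1, with a wider range. Of the BMP-2 libraries, Gjb2 was lowest in the unnumbered library and Egfr in replicate 1. These genes too were picked as the highest of 11967 values, so r is a description.

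Of the ligands, 5 of 6 had a negative and 1 a positive log2 change, and 0 was called by edgeR (1 of 6 at an unadjusted p below 0.05). DESeq2 and limma-voom also called 0 of the 6. Of all 17006 tested genes, 8835 had a negative and 8171 a positive change. Nrg1, Hbegf and Areg varied together over the 6 libraries (Pearson r from 0.94 to 0.97), so their signs are not separate evidence. Nrg3 (ENSMUSG00000041014, chromosome 14, 38090909 to 39195045, minus strand), a neuregulin known for its action on Erbb4 and for expression in neurons, was the ligand whose groups did not overlap. It had 9, 22 and 14 counts (0.280, 0.905 and 0.594 CPM) with BMP-2, against 27, 20 and 37 counts (1.34, 1.001 and 1.38 CPM) in control replicates 1, 2 and 3. Each BMP-2 library was below each control, with the least distance between BMP-2 replicate 2 and control replicate 2. The log2 change was -1.09 (SE 0.463, 95% interval -2.15 to -0.028, unadjusted p = 0.0455, adjusted p = 0.473, edgeR). It did not pass the test and the level was low.

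Neuronal markers, 9 of 9 detected with none at 0, summed to 77.5, 171 and 133 CPM with BMP-2, against 169, 198 and 218 CPM in control replicates 1, 2 and 3. Within the BMP-2 libraries they had the same order as Nrg3. Among the controls the orders differed, with Nrg3 lowest in control replicate 2 and the neuronal sum lowest in control replicate 1. In that sum the groups overlapped, since BMP-2 replicate 2 (171 CPM) lay above control replicate 1 (169 CPM). Of the 9, 8 had negative and 1 a positive change, and 0 was called (3 at an unadjusted p below 0.05, edgeR). In 5 of them each BMP-2 library lay below each control, as in 6.73% of all tested genes. The most abundant were Prph and Stmn2. Prph, an intermediate filament gene of peripheral neurons, had 17.8, 46.9 and 36.7 CPM with BMP-2, against 47.9, 56.1 and 53.9 CPM in the controls. Stmn2, a neuronal microtubule regulator gene, had 18.004, 39.4 and 26.9 CPM with BMP-2, against 40.3, 52.7 and 63.0 CPM. The part of neurons in the Nrg3 values was not tested.

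Nrg1 (ENSMUSG00000118541), the best known neuregulin gene, had 6.84, 9.17 and 5.81 CPM with BMP-2, against 7.17, 11.2 and 9.61 CPM in the controls. The groups overlapped, and the log2 change was -0.36 (SE 0.243, 95% interval -0.91 to 0.20, adjusted p = 0.788, edgeR). The row of Nrg1 gives a span of 186 bases but a length of 15433 bases, so it seems to join annotation entries of the same name, and its position and level per length are not used. This was so in 827 rows of the table, and in no other of the 10 members.

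Areg (ENSMUSG00000029378), the amphiregulin gene and an Egfr ligand known to respond to cAMP and ERK signals, had the largest coefficient of variation of the 10 members in both groups, 54.8% with BMP-2 and 65.2% without. It had 4.07, 10.4 and 4.62 CPM with BMP-2, against 4.43, 23.6 and 16.6 CPM in control replicates 1, 2 and 3. Control replicate 1 lay among the BMP-2 libraries, and the controls alone spanned 5.34-fold. Areg averaged 6.35 ± 3.48 CPM with BMP-2 and 14.9 ± 9.72 CPM without (SD, n = 3 each), with a log2 change of -1.23 (SE 0.642, 95% interval -2.78 to 0.31, adjusted p = 0.652, edgeR). This interval holds no change and reaches down to a fall to 0.146 of the control level, so neither is excluded at this spread.

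Epgn and Ereg, the genes of the Egfr ligands epigen and epiregulin, neighbour Areg on the plus strand of chromosome 5, and like Areg were lowest of the controls in control replicate 1. That replicate was also the lowest control for Egfr, Erbb3, Erbb4, Nrg1, Hbegf, Tgfa and Btc, though not for Erbb2 and Nrg3. The trait was therefore not particular to these neighbours. In GRCm39, Epgn spans 91175323 to 91183074, Ereg 91222481 to 91241505 and Areg 91287458 to 91296291, and Btc follows on the minus strand from 91505120 to 91550853. Epgn had 1.15, 1.15 and 0.339 CPM with BMP-2, against 0.348, 2.80 and 2.69 CPM in control replicates 1, 2 and 3. Ereg had 1.06, 2.02 and 0.467 CPM with BMP-2, against 0.547, 1.803 and 2.17 CPM. Both were lowest in the unnumbered BMP-2 library and in control replicate 1 within their groups, at 7 to 11 counts. Hbegf (ENSMUSG00000024486), the gene of heparin-binding EGF-like growth factor, had 12.002, 24.3 and 11.6 CPM with BMP-2, against 14.9, 27.8 and 24.9 CPM, with control replicate 1 again lowest of the controls. The log2 changes of Epgn, Ereg and Hbegf were -1.14, -0.36 and -0.50 (adjusted p = 0.765, 0.962 and 0.797, edgeR), and the groups overlapped for each.

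**Figure D4:**
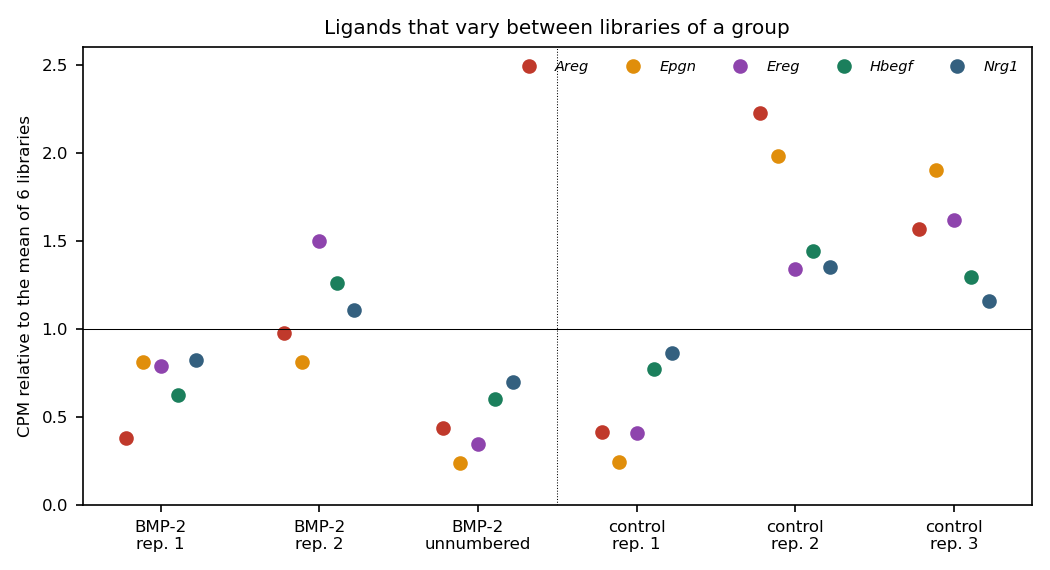
Level of Areg, Epgn, Ereg, Hbegf and Nrg1 in each library, relative to the gene's mean over the 6 libraries (vertical, ratio of CPM), with BMP-2 libraries left and controls right. All 5 genes lie below 1 in BMP-2 replicate 1, the unnumbered BMP-2 library and control replicate 1, and above 1 in control replicates 2 and 3. Areg has 4.43 CPM in control replicate 1 and 23.6 CPM in control replicate 2.

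ERK response genes had a score of -0.10, 0.051 and -0.17 with BMP-2, and -0.51, 0.20 and 0.31 in control replicates 1, 2 and 3. Control replicate 1 was thus also lowest of the controls in that list, and the unnumbered library lowest of the treated. Control replicate 1 also had the lowest control score for ligand shedding (-0.19), adaptors and kinases (-0.053) and receptor restraint (-0.16), lists described below. For epithelial markers the lowest was control replicate 2 (-0.12). A low control replicate 1 was thus not particular to the ERK list. The part of the ERK response genes in the ligand values was not tested. The 250 bases before the RefSeq starts of Areg (chr5:91139349-91139598) and Epgn (chr5:91027267-91027516, both plus strand, GRCm38.p6) are shown because these neighbours were both far lower in control replicate 1 than in the other controls. With BMP-2 they were not alike: Areg was low in replicate 1 and the unnumbered library, and Epgn in the unnumbered library alone. Capitals mark matches to the motifs searched in Erbb4. In Areg these were TGACGTCA, whose first base lies 61 bases before the start, and TATAAA, 31 bases before it. In Epgn they were TATAAA alone, 86 bases before the start. The element TGACGTCA stood in 1.55% and TATAAA in 12.4% of all 32851 windows, and TGANTCA, absent from both, in 6.75%.
Areg: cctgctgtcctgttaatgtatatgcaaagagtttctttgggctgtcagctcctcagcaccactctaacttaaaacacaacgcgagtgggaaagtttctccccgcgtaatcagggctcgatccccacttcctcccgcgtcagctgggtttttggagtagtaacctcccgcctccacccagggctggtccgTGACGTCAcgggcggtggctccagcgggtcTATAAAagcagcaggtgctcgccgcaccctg
Epgn: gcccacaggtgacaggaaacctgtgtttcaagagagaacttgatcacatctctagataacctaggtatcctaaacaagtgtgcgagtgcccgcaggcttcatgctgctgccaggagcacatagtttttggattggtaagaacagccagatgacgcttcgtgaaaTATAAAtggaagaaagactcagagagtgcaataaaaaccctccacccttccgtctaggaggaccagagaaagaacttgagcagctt

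Tgfa (ENSMUSG00000029999, chromosome 6, 86172205 to 86252701, plus strand), the gene of transforming growth factor alpha, was the 1 ligand with a positive change. It had 31.4, 45.4 and 45.6 CPM with BMP-2, against 23.4, 38.2 and 38.1 CPM in control replicates 1, 2 and 3. The groups overlapped, since BMP-2 replicate 1 lay below control replicates 2 and 3. The log2 change was 0.29 (SE 0.221, 95% interval -0.22 to 0.80, adjusted p = 0.834, edgeR). Btc (ENSMUSG00000082361), the gene of betacellulin, a ligand of Egfr and Erbb4, had 22.0, 21.3 and 14.3 CPM with BMP-2, against 17.02, 23.0 and 20.3 CPM. Its log2 change was -0.064 with a 95% interval from -0.51 to 0.38 (adjusted p = 0.981, edgeR).

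Per kilobase, of the ligands other than Nrg1, Tgfa, Btc and Hbegf had means from 3.31 to 5.92 CPM per kb in either group. Areg varied more, with 3.65, 19.5 and 13.7 CPM per kb in control replicates 1, 2 and 3, and Nrg3 was far below these 4. In BMP-2 libraries Tgfa was at 5.92 ± 1.18, Areg at 5.23 ± 2.87, Btc at 4.25 ± 0.938 and Hbegf at 3.31 ± 1.49 CPM per kb (SD, n = 3). In control libraries Areg was at 12.3 ± 7.9997, Tgfa at 4.82 ± 1.23, Hbegf at 4.67 ± 1.40 and Btc at 4.45 ± 0.661 CPM per kb (SD, n = 3). Neighbours in either order did not differ beyond their spread. Nrg3 was at 0.0859 ± 0.0453 CPM per kb with BMP-2 and 0.180 ± 0.0304 CPM per kb without. The 3 abundant receptors were each above the mean of every one of the 5 ligands per length in BMP-2 libraries, while in the controls Areg averaged above Egfr.

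**Figure D5:**
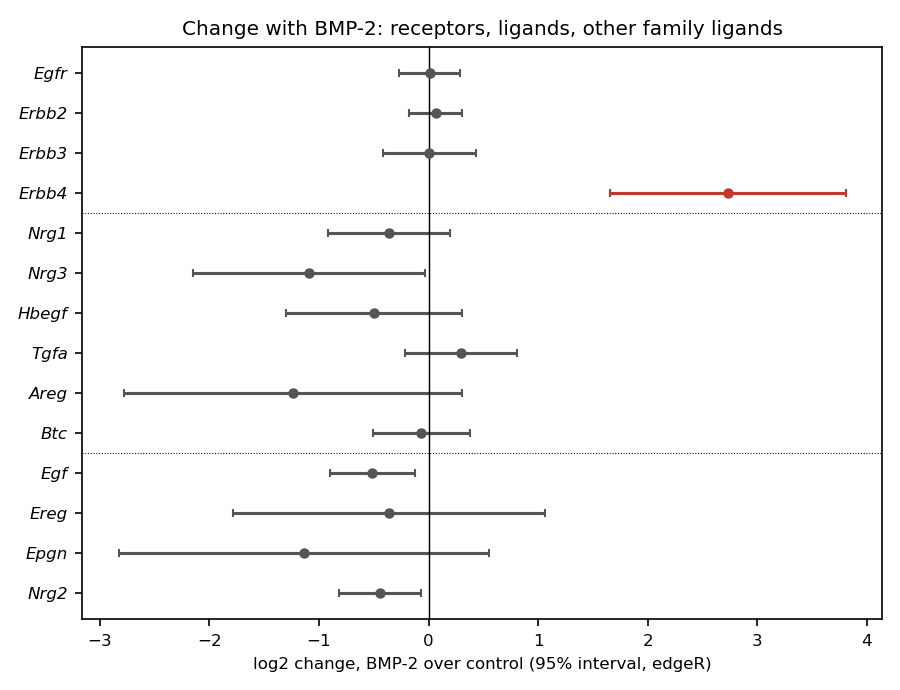
Log2 change of each gene with BMP-2 over control (points, horizontal) with its 95% interval from edgeR, for the 4 receptors (top), 6 ligands (middle) and 4 other ligands of the family that were tested (bottom). Erbb4, at 2.73, is the 1 called gene. The intervals are not adjusted for the number of genes, and those of Nrg3, Egf and Nrg2 also exclude 0 though none of these was called. The intervals of Egfr, Erbb2 and Erbb3 are narrow around 0, and those of Areg, Epgn and Ereg are wide.

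The other listed ligands of the family were Egf, Ereg, Epgn, Nrg2 and Nrg4. Of the 4 tested, 0 was called and 2 had an unadjusted p below 0.05 in edgeR. The log2 change was negative in each of the 4, and its median was -0.48. Ereg and Epgn varied together over the 6 libraries (Pearson r of 0.92), as did Egf and Nrg2 (0.83), so their signs are not separate evidence. Egf, the gene of epidermal growth factor, had 11.04, 16.2 and 14.5 CPM with BMP-2, against 20.4, 21.2 and 18.1 CPM in the controls. Nrg2, another neuregulin gene, had 7.96, 8.51 and 7.38 CPM with BMP-2, against 11.9, 10.7 and 9.87 CPM. For both, each BMP-2 library was below each control, as in 6.73% of all tested genes. Egf had a log2 change of -0.51 (SE 0.169, adjusted p = 0.272) and Nrg2 of -0.44 (SE 0.164, adjusted p = 0.360, edgeR), so neither passed the test. Nrg4 was under the filter with 3 to 7 counts in BMP-2 libraries and 4 to 8 in control libraries.

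Of 4 lists of pathway genes around the receptors, 1 held a called gene. That is too few to read against the 0.911% of all tested genes called, and the lists were chosen with earlier results known. Among 15 genes that restrain ErbB receptors or their signal, Lrig1 was called lower and 14 were not called (0 higher, median log2 change -0.022). Lrig1, a transmembrane protein gene whose product promotes the degradation of ErbB receptors, had 122, 95.5 and 98.2 CPM with BMP-2, against 157, 169 and 181 CPM in control replicates 1, 2 and 3. The groups were apart, and the log2 change was -0.68 (SE 0.121, 95% interval -0.96 to -0.40, adjusted p = 0.0483, edgeR). The call ended without BMP-2 replicate 2 (adjusted p = 0.0988), the unnumbered BMP-2 library (0.165), control replicate 1 (0.108), control replicate 2 (0.169) or control replicate 3 (0.114), all in edgeR. With DESeq2 size factors the adjusted p was 0.0505.

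Of 10 genes for shedding of the ligands 0 was called (6 positive and 4 negative changes, median 0.075, 2 at an unadjusted p below 0.05, edgeR). Of all tested genes, 10.1% had such an unadjusted p. Adam10, a metalloprotease that cleaves Btc and EGF precursors, had 261, 378 and 305 CPM with BMP-2, against 187, 229 and 209 CPM in the controls, with no overlap (log2 change 0.60, SE 0.151, adjusted p = 0.133, edgeR). Rhbdf1, an inactive rhomboid protein gene that assists the protease Adam17, had a log2 change of -0.051. Of 20 adaptor and kinase genes 0 was called (13 positive, median 0.050, 2 at an unadjusted p below 0.05, edgeR). Their most abundant members, the kinase gene Akt1 and the kinase subunit gene Pik3r1, had log2 changes of -0.12 and -0.11.

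Of 18 ERK response genes 0 was called, 14 had a negative and 4 a positive change, the median was -0.15, and 3 had an unadjusted p below 0.05 in edgeR. Such a p was found for 10.1% of all tested genes. Ccnd1, the cyclin D1 gene, had 467, 399.8 and 685 CPM with BMP-2, against 645, 608 and 459 CPM in the controls, with full overlap. Phlda1, an ERK-induced gene, had 182, 150.5 and 169 CPM with BMP-2, against 259, 212 and 212 CPM. Each BMP-2 library was below each control in Phlda1, and the log2 change was -0.45 (SE 0.122, adjusted p = 0.169, edgeR).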

How the data were processed

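The deposited table holds raw read counts per gene, made by the authors with no normalization, together with a gene length in bases. The submitters' processing notes name cutadapt 2.9, HISAT2 2.2.0, featureCounts and build GRCm39. How strand and multi-mapping reads were counted is not stated there, so overlapping genes on opposite strands are uncertain (Egfr and Egfros, Erbb2 and Mien1 over 9 bases). Per the labels' protocols RNA was poly(A)-selected and libraries directional. No 2 libraries of a group were alike within counting noise (chi-square over its degrees of freedom, 13.7 to 41.5).

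Counts were fitted in edgeR 4.0.16 (R 4.3.3; quasi-likelihood, robust, TMM, default filter by group, 4 residual degrees of freedom, Benjamini-Hochberg over 17006 genes, threshold 0.05). Intervals of 95% come from the F statistic. CPM used TMM-scaled totals of tested genes; scores used log2 CPM with prior count 2. The script was tested on simulated data. Alternatives covered scaling, filter, DESeq2 1.42.0, limma-voom (limma 3.58.1), the robust option, the threshold, unnamed rows, leaving out each library and a replicate block.

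Members and lists were chosen with earlier results of these data known. Named genes are all members, the 5 other ligands, called genes of 4 pathway lists or their 2 most abundant, and the 3 genes most correlated with each receptor. Of marker lists, the 2 most abundant genes and muscle genes at 0 are named; 1 marker is not reported here. Gjb2 was chosen for description after its values were seen. For Acta1 and Tubb3 no row was found, and these were not analysed here. Promoter windows are from RefSeq (GRCm38.p6), in which 7 of the 10 members and 3 of the 5 other ligands were matched.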

Additional observations from a re-analysis of the deposited data

How the results depend on the processing

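Erbb4 kept a positive log2 change in the 17 alternatives that gave it a value (2.46 to 3.09) and was called in 6 of them, with adjusted p from 0.00162 to 0.167. The number of members called was 1 with DESeq2 size factors, upper quartile factors, no low-count filter, the DESeq2 test, no robust option and unnamed rows left out. It was 0 with library totals, limma-voom, a threshold of 0.01, a filter of 1 CPM in 3 libraries (which removes Erbb4), and 0 to 0 when each library was left out. Genes called in all, 155 in the fit reported, were 552 with no filter, 690 by DESeq2, 78 by limma-voom, 20 at the stricter threshold, and from 20 to 151 with 1 library left out, which lowers the number of samples; other causes were not tested. Over replicates 1 and 2 of each group, the replicate block called 540 genes and 0 members (Erbb4 adjusted p = 0.0577), against 42 genes and 0 members unblocked. The labels do not say whether libraries of the same number belong together. Deviations from the group means correlated at 0.43 and 0.14 for same-numbered libraries, and at -0.34 and -0.31 for crossed numbers (1 with 2). Whether the libraries were paired was not tested, and the fit reported used no block. The sign turned under some alternatives for Egfr, Erbb2, Erbb3, Btc, Ereg, Rhbdf1 and Ccnd1. Btc was 0.14 with the block and 0.12 unblocked, and Ereg 0.50 and 0.38. With 1 library left out, log2 changes ran from -0.11 to 0.069 for Egfr, -0.020 to 0.12 for Erbb2, -0.20 to 0.12 for Erbb3, -0.17 to 0.11 for Btc, -0.97 to 0.017 for Ereg, -0.11 to 0.035 for Rhbdf1 and -0.40 to 0.012 for Ccnd1. Nrg1, Nrg3, Hbegf, Tgfa and Areg kept their direction and stayed uncalled in all 18 alternatives, but not their size. Without BMP-2 replicate 2, Nrg1 was -0.56, Hbegf -0.93 and Areg -1.78. Without control replicate 2, Nrg1 was -0.21 and Areg -0.74. Hbegf was -0.32 without the unnumbered BMP-2 library, and Nrg3 ran from -1.53 without BMP-2 replicate 2 to -0.73 without BMP-2 replicate 1. Tgfa ran from 0.096 without control replicate 1 to 0.45 without BMP-2 replicate 1. Epgn ran from -1.62 without control replicate 1 to -0.76 without the unnumbered BMP-2 library, and was -0.055 with the block. Adam10 was called with no filter (adjusted p = 0.00495), by DESeq2 (0.0116) and with the block (0.0386), and Phlda1 by DESeq2 (0.0486). Lrig1 kept its direction in all 18 and was called in 4. Depth limits Erbb4, Nrg3, Ereg and Epgn, which had at most 72 counts in any library.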
